A study of Mus musculus with 7 samples.

Results

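Prostaglandin and leukotriene metabolism was followed through 10 of its genes in mouse spleen after injection of lipopolysaccharide (LPS, the bacterial endotoxin). The 10 were taken by symbol, not by a threshold on their values, from the 17920 genes of the expression table, and all 10 were found. They are the cyclooxygenases Ptgs1 and Ptgs2, the synthases Ptges and Tbxas1, the prostaglandin-degrading enzyme Hpgd, and the receptors Ptger2 and Ptger4. The others are the lipoxygenase genes Alox5 and Alox15, and Alox5ap, whose protein helps that of Alox5. The study measured RNA from the spleens of 7 C57BL/6 mice of 8 weeks, 1 library per mouse, on the BGISEQ-500 sequencer. Every mouse had received 20 mg/kg LPS into the peritoneum. Wild-type spleens were taken at 90 min (2 libraries) and at 6 h (2 libraries), and spleens of mice lacking GdX (labelled GdX-/- and, in the titles, UBL4A/GdX-/Y) at 90 min (2 libraries) and at 6 h (1 library). GdX, also called UBL4A, is a small ubiquitin-like protein encoded on the X chromosome. No spleen without LPS was among the libraries, so each level is a level after LPS, and the change from the resting spleen was not measured. The labels call the material both spleen and splenocytes, and values here are of all its cells together.

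Prostanoids and leukotrienes are lipid mediators made from arachidonic acid that phospholipases release from membranes. Cyclooxygenases turn it into prostaglandin H2, from which terminal synthases make prostaglandin E2, thromboxane A2, prostacyclin and others, while the arachidonate lipoxygenase encoded by Alox5, helped by the membrane protein FLAP (Alox5ap), starts leukotriene synthesis. The mediators act at nearby cells through G protein-coupled receptors and are quickly broken down. In inflammation the inducible cyclooxygenase encoded by Ptgs2 is a classic early LPS target in macrophages, and leukotriene synthesis is best known from neutrophils and other myeloid cells.

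Values are FPKM (fragments scaled by transcript length and library size), a scale per length on which genes can be compared. Differences were taken between values of log2(FPKM + 1), where changes of low genes look smaller than they are, and were tested with limma over the 11378 genes with a mean of at least 1 FPKM. Of the members, 9 passed that filter, and Alox15, with a mean of 0.323 FPKM, was not tested. Of the 9, Alox5 reached 1 FPKM in 2 of 7 libraries only, both GdX-deficient. It passed the filter through them, so its genotype differences are given as values, with no test, and its place in the counts below supports nothing. A change was called at an adjusted p (Benjamini-Hochberg) under 0.05, and a positive value of a genotype difference means higher in GdX-deficient spleen. With 1 or 2 mice per group, the tests rest on a spread shared by the groups, and the lone GdX-deficient 6 h library is assumed to vary like the others.

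The depth behind the libraries, estimated from the steps between low FPKM values, was 19000000 to 21100000 fragments. Globin genes took 7.7% to 30.9% of the FPKM sum. Ubl4a itself read 5.62 and 7.50 FPKM in wild-type and 4.03 and 5.69 in GdX-deficient spleen at 90 min, and 11.9 and 14.0 against 10.6 at 6 h, so its own row hardly separated the genotypes. Summed with Gm44504, an entry that overlaps it, the values were 21.0 and 22.0 against 5.04 and 7.55 at 90 min and 63.0 and 38.1 against 11.2 at 6 h, lower in every GdX-deficient library. The log2 differences between the 2 replicates of a group had an SD across genes of 0.37 for wild type at 90 min, 0.57 for wild type at 6 h and 0.51 for GdX-deficient spleen at 90 min. In the last pair the summed FPKM of 10 neutrophil markers was 1124 in replicate 1 and 4884 in replicate 2, with all 10 higher in replicate 2. Markers of splenic B cells, T cells and red pulp macrophages were present in every library.

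The promoters of Ptgs2, Ptgs1, Tbxas1 and Hpgd, from RefSeq (GRCm38.p6, 250 bases before to 50 after a transcript start, all on the plus strand), are shown because the last 3 fell together in wild-type spleen and Ptgs2, which had lower values there too, is the inducible cyclooxygenase. Capitals mark matches to the motifs searched on both strands: the NF-kB consensus, the cyclic AMP element TGACGTCA and its core TGACG, the C/EBP palindrome TTGCGCAA, the E-box CACGTG, the AP-1 motif TGANTCA and the TATA motif TATAAA.
Ptgs2 promoter, chr1:150099781-150100080: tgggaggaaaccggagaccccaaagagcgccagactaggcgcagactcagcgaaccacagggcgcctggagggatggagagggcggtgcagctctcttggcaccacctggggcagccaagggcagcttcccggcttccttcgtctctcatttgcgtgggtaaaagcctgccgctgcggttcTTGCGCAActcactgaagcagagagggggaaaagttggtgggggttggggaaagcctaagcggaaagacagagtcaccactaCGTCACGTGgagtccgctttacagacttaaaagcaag
Ptgs1 promoter, chr2:36230176-36230475: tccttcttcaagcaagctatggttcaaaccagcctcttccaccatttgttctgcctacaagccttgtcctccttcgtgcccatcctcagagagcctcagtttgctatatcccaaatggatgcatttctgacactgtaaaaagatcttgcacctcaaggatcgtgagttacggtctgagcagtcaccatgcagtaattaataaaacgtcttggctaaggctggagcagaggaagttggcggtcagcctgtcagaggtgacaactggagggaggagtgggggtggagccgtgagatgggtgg
Tbxas1 promoter, chr6:38918736-38919035: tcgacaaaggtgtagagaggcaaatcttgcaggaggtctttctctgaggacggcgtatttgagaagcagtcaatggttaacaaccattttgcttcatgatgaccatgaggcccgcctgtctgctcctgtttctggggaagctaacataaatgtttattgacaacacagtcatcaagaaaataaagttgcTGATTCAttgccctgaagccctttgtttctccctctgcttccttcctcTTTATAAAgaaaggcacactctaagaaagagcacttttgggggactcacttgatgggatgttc
Hpgd promoter, chr8:56294302-56294601: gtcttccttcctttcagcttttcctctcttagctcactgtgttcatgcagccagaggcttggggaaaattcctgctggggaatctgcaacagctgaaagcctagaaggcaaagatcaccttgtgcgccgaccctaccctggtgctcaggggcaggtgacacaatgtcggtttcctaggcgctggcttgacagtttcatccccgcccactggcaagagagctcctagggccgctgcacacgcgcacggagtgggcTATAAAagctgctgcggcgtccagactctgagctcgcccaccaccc
In the Ptgs2 window, TTGCGCAA begins 69 bases before the start, and that core on the minus strand overlaps an E-box in the run CGTCACGTG from base 14 of the transcript on. Of the 32851 promoters of this length, 0.183% hold TTGCGCAA, 20.8% the core TGACG and 7.15% the E-box. The Tbxas1 window holds an AP-1 match (7.81% of promoters) 61 bases before the start and a pair of overlapping TATA matches in the run TTTATAAA. Hpgd holds TATAAA (13.6% of promoters) from base 5 of the transcript on, and the Ptgs1 window shown holds no match. The full cyclic AMP element (1.79% of promoters) and the NF-kB consensus (4.51%) matched in 0 of the 8 member promoters listed.

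At 90 min in wild-type spleen the members spanned from well-expressed genes to genes near the floor. Alox5ap (28.4 and 31.4 FPKM) and Ptger4, the receptor for prostaglandin E2 called EP4 (25.2 and 33.8), were highest and overlapped. Hpgd, the dehydrogenase that inactivates prostaglandins, followed at 20.8 and 21.5, then Ptgs2 at 18.8 and 16.6. Tbxas1, the thromboxane synthase, stood at 8.46 and 9.38 and overlapped Ptgs1, the constitutive cyclooxygenase, at 7.86 and 8.53. Ptges, the inducible microsomal synthase of prostaglandin E2, stood at 5.07 and 5.25, and Ptger2, the receptor EP2, at 2.09 and 2.63. Alox5 (0.49 and 0.47) and Alox15 (0.35 and 0.45), which encodes another arachidonate lipoxygenase, were lowest. The mean of Alox5ap lay above 85.6% of all genes of the table, and that of Alox5 above 30.9%.

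**Figure D1:**
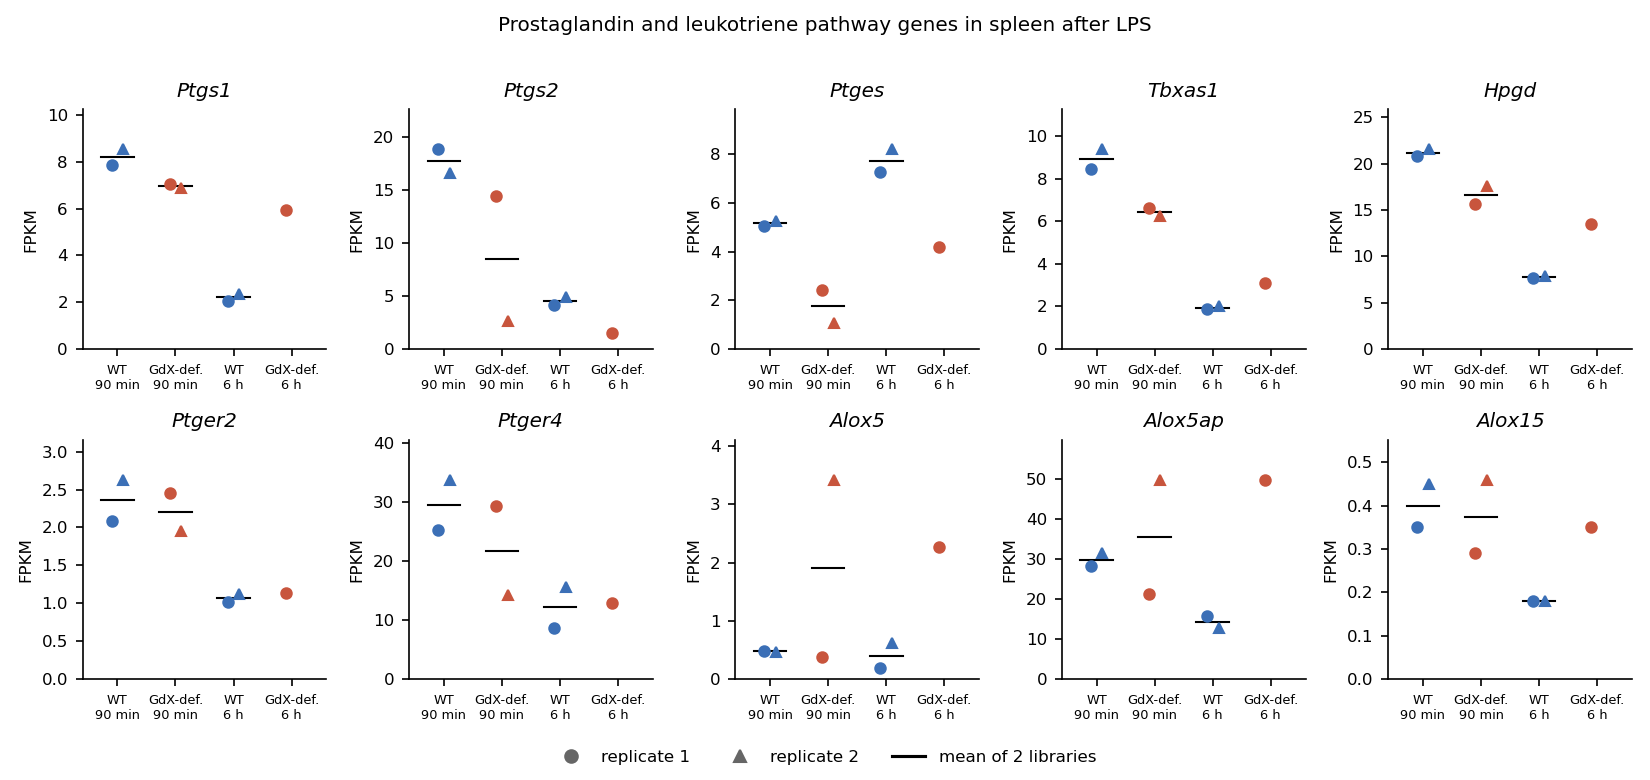
FPKM of the 10 genes in each of the 7 libraries, 1 panel per gene, grouped by genotype and time after LPS; points are libraries and bars the means of groups of 2. Ptgs1, Tbxas1 and Hpgd are low in both wild-type 6 h libraries, Ptgs2 is lowest in the GdX-deficient 6 h library (1.53), and Alox5 and Alox5ap are highest in GdX-deficient 90 min replicate 2 and the GdX-deficient 6 h library.

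Between 90 min and 6 h in wild-type spleen, the constitutive cyclooxygenase, the thromboxane synthase and the prostaglandin dehydrogenase fell. Of the 9 tested members, 3 passed the threshold, all lower at 6 h. Over all genes tested, 10.7% passed in either direction and 6.32% were lower. The members' median difference was -1.25 on the log2 scale, against 0.05 over all genes. Both 6 h libraries lay below both 90 min libraries for 8 of the 10 members, as for 27.6% of all genes tested, while Ptges lay above, as 30.3% of genes did, and Alox5 overlapped.

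Ptgs1 (Entrez gene 19224, chr2:36216742-36258593, GRCm38.p6) went from 8.20 ± 0.474 FPKM (SD, n = 2) at 90 min to 2.21 ± 0.233 (n = 2) at 6 h, with 2.04 and 2.37 in the later libraries. The groups were far apart, and the gene fell by 1.52 (SE 0.28, limma adjusted p = 0.0122). Tbxas1 (Entrez gene 21391, chr6:38864159-39084590) fell from 8.92 ± 0.651 to 1.93 ± 0.099 FPKM (SD, n = 2 each), with 1.86 and 2.00 at 6 h. Its change of -1.76 (SE 0.28, limma adjusted p = 0.00685) passed in every alternative analysis run. The Tbxas1 locus overlaps other genes, among them Hipk2, as Ptges, Alox5 and Alox15 overlap predicted genes, and the counting is not stated to use strand. Hpgd (Entrez gene 15446, chr8:56294552-56321046) fell from 21.2 ± 0.488 to 7.75 ± 0.141 FPKM (SD, n = 2 each), with 7.65 and 7.85 at 6 h and a change of -1.34 (SE 0.26, limma adjusted p = 0.0158). Without wild-type 90 min replicate 1 or 2, the limma adjusted p of Ptgs1 became 0.0737 or 0.0945 and that of Hpgd 0.119 or 0.123.

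Ptgs2 (Entrez gene 19225, chr1:150100031-150108234) stood at 17.7 ± 1.61 FPKM at 90 min and 4.57 ± 0.516 at 6 h (SD, n = 2 each), from 4.20 and 4.93 in the later libraries. The difference of -1.75 (SE 0.56) was close in size to that of Tbxas1 but its spread over the 7 libraries was wider, and it missed the threshold (limma adjusted p = 0.0755). It passed in 6 of 14 alternatives, among them those without either GdX-deficient 90 min replicate or either wild-type 6 h replicate. Without wild-type 90 min replicate 1 or 2 it missed, with differences of -1.66 and -1.84. It also missed without the filter on low values (limma adjusted p = 0.210). Ptger4 (Entrez gene 19219, chr15:5233399-5244187) had 8.66 and 15.7 FPKM at 6 h, a difference of -1.25 (SE 0.40, limma adjusted p = 0.0765). It passed in 1 of 14 alternatives, without wild-type 6 h replicate 2, and leaving out 1 library gave -1.65 to -0.85. Ptger2 (Entrez gene 19217, chr14:44988111-45003820) had 1.02 and 1.13, a difference of -0.69 (limma adjusted p = 0.107). Ptges (Entrez gene 64292, chr2:30889471-30931020) was the member with higher values at 6 h, 7.26 and 8.20 FPKM, with a difference of 0.50 and a 95% interval of -0.22 to 1.22. In this window after LPS its 6 h libraries lay above its 90 min ones while those of both cyclooxygenases lay below.

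The wild-type 6 h libraries were also low in markers of most cell types, with 9 of 12 lists summing to less in both than in either 90 min library. The summed FPKM of 9 red pulp macrophage markers was 1328 and 1368 at 90 min and 870.2 and 723.1 at 6 h, with all 9 lower in both later libraries. The 6 B-cell markers summed to 1483 and 1352 at 90 min and 473.7 and 476.3 at 6 h (5 of 6 lower), and the 6 monocyte markers to 1063 and 1156 against 450.4 and 578.8 (4 of 6 lower). No marker of these lists was at 0 in all libraries. In a whole spleen, fewer cells of a type and less RNA per cell cannot be told apart, and the part of these cell types in the falls of Ptgs1, Tbxas1 and Hpgd was not tested.

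In GdX-deficient spleen 0 of 9 members passed limma's test between 90 min and 6 h, where 0% of all genes did so and 910 genes had an unadjusted limma p under 0.05. Among those were 3 members: Ptgs2 (-1.57, limma adjusted p = 0.609), Tbxas1 (-0.87, 0.529) and Ptges (0.96, 0.583). The value of Ptgs2 was -0.53 without GdX-deficient 90 min replicate 1 and -2.61 without replicate 2, and that of Ptges 1.32 and 0.60. Ptgs1 stood at 7.04 and 6.87 FPKM at 90 min and 5.94 at 6 h, a difference of -0.20 with a 95% interval of -0.97 to 0.57. Hpgd stood at 15.6 and 17.6 and then 13.5, a difference of -0.28 with an interval of -1.01 to 0.45. The difference between genotypes in these time courses was tested directly, and 0 of 9 members passed (0.0703% of all genes did). Of the 1136 genes with an unadjusted limma p under 0.05, 3 were members: Alox5ap (1.61, limma adjusted p = 0.377), Ptgs1 (1.32, 0.323) and Hpgd (1.06, 0.421). The value of Alox5ap was 1.02 without GdX-deficient 90 min replicate 1 and 2.21 without replicate 2. All 9 members, Alox5 included, were positive in the main fit. Their median was 0.62 against 0.19 over all genes, and each rests on the lone GdX-deficient 6 h library. After quantile normalization the genotype difference of Ptgs2 was -1.43 at 90 min and -1.61 at 6 h. That of Ptger2 was -0.19 and then -0.47, so for both genes the difference between time courses was no longer positive.

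**Figure D2:**
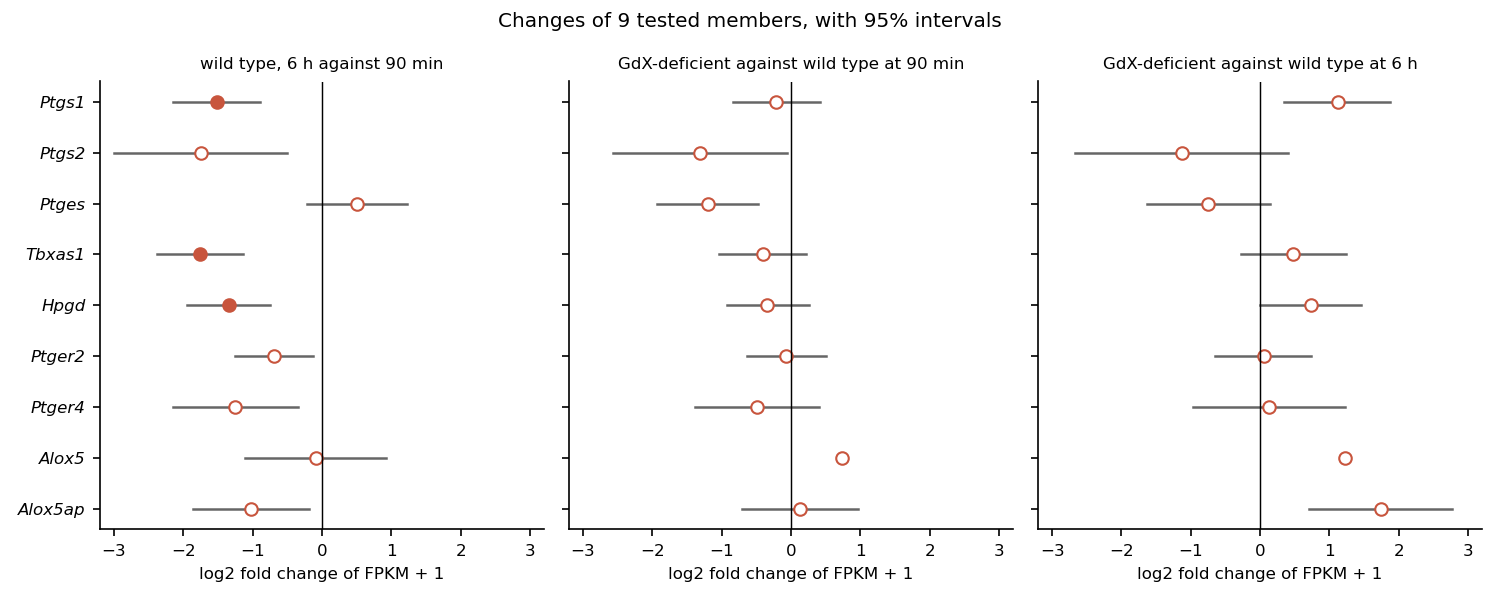
Differences on the log2(FPKM + 1) scale with 95% limma intervals for the 9 tested genes, over time in wild type and between genotypes at 90 min and at 6 h; filled points passed an adjusted p of 0.05. Intervals of Ptgs1, Tbxas1 and Hpgd lie well below 0 for wild-type spleen over time, and no gene passed in the genotype comparisons. Alox5, which passed the filter on low values only through GdX-deficient libraries, is drawn there without an interval.

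Ptgs2 and Ptges, the inducible pair that makes prostaglandin E2, were the members with lower values in GdX-deficient spleen at both times. Ptgs2 stood at 18.8 and 16.6 FPKM in wild-type and 14.4 and 2.66 in GdX-deficient spleen at 90 min, and at 4.20 and 4.93 against 1.53 at 6 h. The GdX-deficient values lay below the wild-type ones at each time, but the 2 at 90 min were far from each other (mean 8.54 ± 8.31, SD, n = 2). Ptges stood at 5.07 and 5.25 against 2.44 and 1.08 at 90 min and at 7.26 and 8.20 against 4.20 at 6 h, again without overlap. An estimated 74 fragments lay behind the lowest Ptges value and 137 behind the lowest of Ptgs2. Of all genes tested, 13.0% lay below at both times in this way, so 2 of 10 members is a count near that share. Above at both times lay 19.0% of genes and 0 members.

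Neither gene passed a test of genotype. At 90 min the differences were -1.31 for Ptgs2 (SE 0.56, limma adjusted p = 0.621) and -1.20 for Ptges (SE 0.32, limma adjusted p = 0.520). At that time 0 of 9 members and 0.0176% of all genes passed. These 2 members were among the 862 of 11378 genes with an unadjusted limma p under 0.05. At 6 h they were -1.13 (SE 0.68, limma adjusted p = 0.298) and -0.75 (SE 0.39, limma adjusted p = 0.243). With time as a covariate, 3 GdX-deficient against 4 wild-type libraries, Ptgs2 differed by -1.24 (SE 0.41, limma adjusted p = 0.116) and Ptges by -1.02 (SE 0.26, limma adjusted p = 0.101). There 0 of 9 members passed (0.0439% of all genes did), with Ptgs2 and Ptges among the 3071 of 11378 genes at an unadjusted limma p under 0.05. Leaving out any 1 library gave -1.74 to -0.71 for Ptgs2, -1.20 to -0.79 for Ptges and 0.13 to 1.23 for Alox5ap. Part of this was which of the GdX-deficient 90 min replicates was in the fit. Without replicate 1, 14.7% of all genes passed, among them Ptgs2 (-1.74, limma adjusted p = 0.0185), Ptges (-1.16, 0.0290) and Alox5ap (1.23, 0.0280). That leaves the replicate with the high neutrophil markers as the only GdX-deficient library at 90 min. Without replicate 2, Ptgs2 differed by -0.71 (limma adjusted p = 0.353), Ptges by -0.79 (0.350) and Alox5ap by 0.63 (0.471), and 0 members passed. At 90 min alone, the difference of Ptgs2 was -2.35 without replicate 1 and -0.28 without replicate 2, and that of Ptges -1.57 and -0.84.

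Ratios within a library do not depend on its scaling. Ptgs2 was 2.40 and 1.94 times Ptgs1 in wild-type spleen at 90 min and 2.06 and 2.08 times at 6 h, so the ratio of inducible to constitutive cyclooxygenase hardly moved while both levels were lower. In GdX-deficient spleen it was 2.05 and 0.387 at 90 min and 0.258 at 6 h. Replicate 1 at 90 min thus lay within the wild-type values and the other 2 libraries well below them. The ratio of Ptges to Hpgd, of the synthase to the degrading enzyme, went from 0.243 and 0.244 at 90 min to 0.949 and 1.04 at 6 h in wild-type spleen, against 0.156 and 0.0615 and then 0.312 in GdX-deficient spleen. Every GdX-deficient value lay below both wild-type values of its time.

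**Figure D3:**
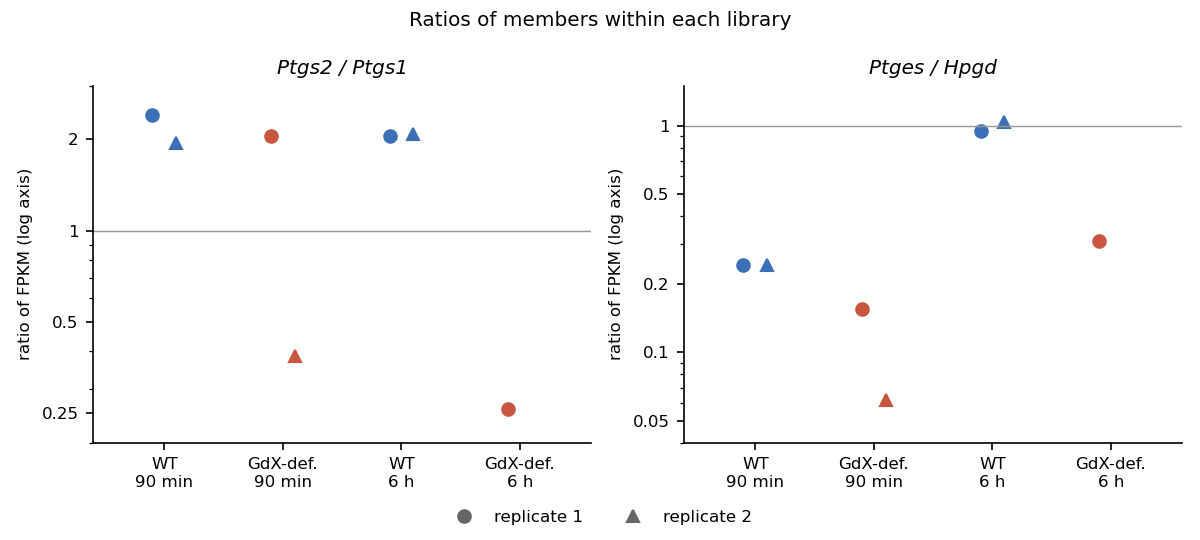
Ratios of FPKM within each library on a log axis, Ptgs2 to Ptgs1 on the left and Ptges to Hpgd on the right, by genotype and time; points are libraries. Ptgs2 exceeds Ptgs1 in the 4 wild-type libraries and GdX-deficient 90 min replicate 1 (2.05) and is below it in the other 2, and Ptges to Hpgd is highest in wild-type 6 h spleen (0.949 and 1.04).

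The other prostanoid genes had smaller differences between genotypes at 90 min. Ptgs1 was at 7.86 and 8.53 against 7.04 and 6.87 FPKM, a difference of -0.21 with a 95% interval of -0.84 to 0.42. Hpgd (-0.34, interval -0.93 to 0.26) and Tbxas1 (6.62 and 6.25 in GdX-deficient spleen, -0.41, interval -1.04 to 0.21) also had lower values, with intervals that include 0. Ptger4 was at 29.4 and 14.2 and Ptger2 at 2.46 and 1.95, both overlapping wild type. At 6 h the GdX-deficient library read 5.94 for Ptgs1 against 2.04 and 2.37 in wild type, a difference of 1.12 (SE 0.34, limma adjusted p = 0.0839). Hpgd read 13.5 against 7.65 and 7.85 (0.73, limma adjusted p = 0.176), and Tbxas1 3.08 against 1.86 and 2.00 (0.48, limma adjusted p = 0.371). After quantile normalization the values were 0.51 for Ptgs1 (limma adjusted p = 0.253), 0.35 for Hpgd and, with its sign turned, -0.12 for Tbxas1. Ptger4 (12.9) lay between the wild-type libraries and Ptger2 (1.14) just above them, with differences of 0.13 and 0.05 that turned to -0.22 and -0.47 after quantile normalization. At 6 h 0 of 9 members passed, while 3.96% of all genes did (2.91% higher). Ptgs1 and Alox5ap were among the 3232 of 11378 genes with an unadjusted limma p under 0.05. The median over all genes was 0.32 in this comparison, so a member at 0.32 sits with the typical gene. It was -0.02 after quantile normalization and 0.55 after rescaling without globin genes.

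Of the leukotriene genes, Alox5 and Alox5ap were high in the same libraries. Alox5 (Entrez gene 11689, chr6:116410071-116461178) stood at 0.39 and 3.42 FPKM in GdX-deficient spleen at 90 min and 2.26 at 6 h. The wild-type libraries read 0.49 and 0.47 at 90 min and 0.19 and 0.62 at 6 h, an estimated 11 to 36 fragments each. Alox5ap (Entrez gene 11690, chr5:149265004-149288153) read 21.3 and 49.8 in GdX-deficient spleen at 90 min and 49.8 at 6 h, against 28.4 and 31.4, then 15.7 and 12.9, in wild type. At 90 min the GdX-deficient libraries lay on both sides of the wild-type ones for both genes. At 6 h the lone GdX-deficient library lay above both, by 1.74 for Alox5ap (SE 0.46, limma adjusted p = 0.0599) and 1.23 for Alox5 (0.67 after quantile normalization). Leaving out any 1 of the other 6 libraries gave 1.60 to 1.87 for Alox5ap. It passed in those fits, but each leaves a further group with 1 library. Without a wild-type 6 h replicate, 1 library stood on each side, so these calls add no support. At 90 min, leaving out GdX-deficient replicate 2 turned the differences of Alox5 (0.74) and Alox5ap (0.13) to -0.09 and -0.47.

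Summed markers of neutrophils and B cells are set beside these 2 genes. The 10 neutrophil markers summed to 1281 and 818.9 FPKM in wild-type and 1124 and 4884 in GdX-deficient spleen at 90 min, and to 1165 and 805.5 against 2648 at 6 h, with 7 of 10 above both wild-type libraries there. The 6 B-cell markers summed to 1180 and 2036 in GdX-deficient spleen at 90 min, and to 1735 against 473.7 and 476.3 at 6 h (5 of 6 above). Over time in wild type, the neutrophil sums and Alox5 overlapped, and the B-cell sums and Alox5ap had lower values at 6 h. Of the 12 cell type lists, 9 had the higher sum in GdX-deficient 90 min replicate 2 than in replicate 1, and 11 had a higher sum in the GdX-deficient 6 h library than in both wild-type ones, all but that of NK cells. No neutrophil or B-cell marker was at 0 in any library. Their part in the values of Alox5 and Alox5ap was not tested. Alox15 (Entrez gene 11687, chr11:70344147-70390538) ranged from 0.18 to 0.46 FPKM. Markers of eosinophils, a cell type known for lipoxygenase products, summed to 10.7 to 26.3 FPKM.

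**Figure D4:**
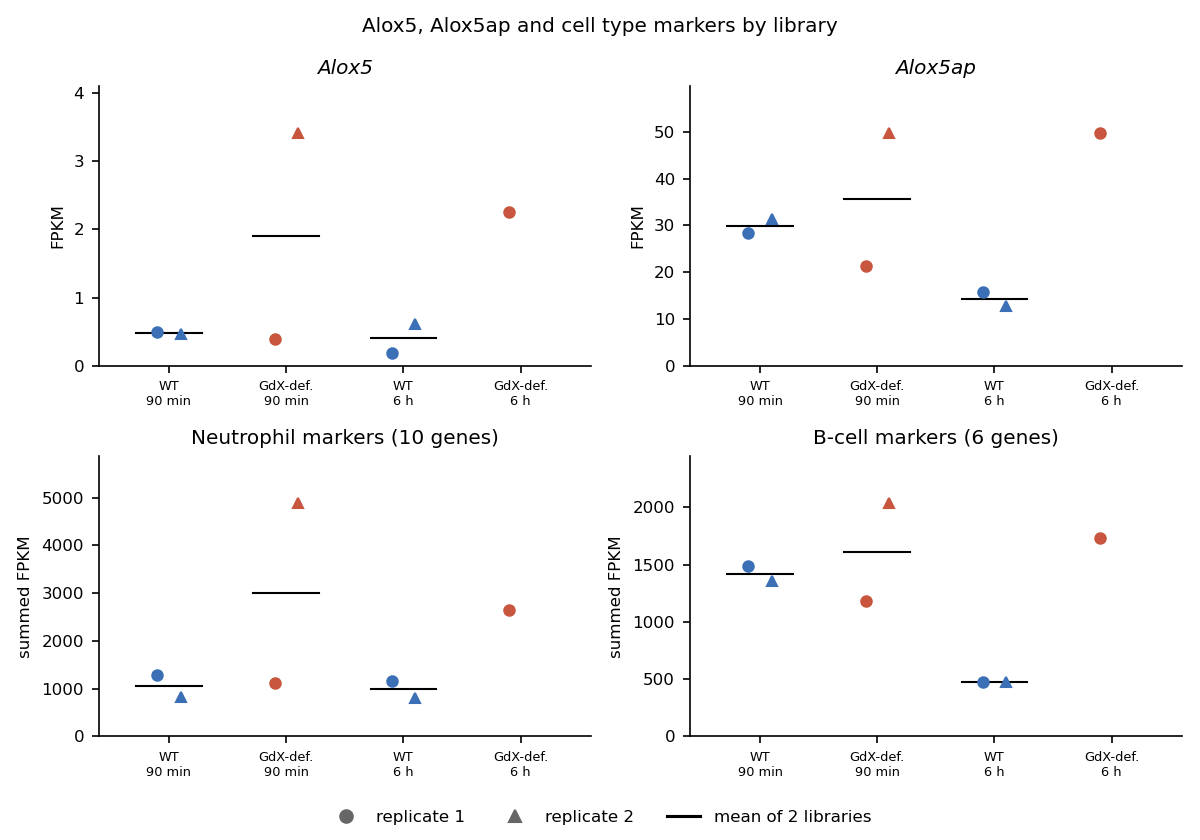
FPKM of Alox5 and Alox5ap (upper panels) and summed FPKM of 10 neutrophil and 6 B-cell markers (lower panels) in each library; points are libraries and bars the means of groups of 2. GdX-deficient 90 min replicate 2 is the highest library for the neutrophil markers (4884) and for Alox5 (3.42).

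The rest of the pathway was described with a list of 47 other genes, of which 46 were in the table and 34 passed the filter. In wild-type spleen 6 of the 34 fell from 90 min to 6 h and 0 rose, where 10.7% of all genes passed and 6.32% fell, and the median was -0.34 against 0.05 over all genes. Cyp4f18, Mgst3 and Ltc4s act on leukotrienes: Cyp4f18, a cytochrome P450 that hydroxylates leukotriene B4 (49.4 and 38.8 FPKM at 90 min, 5.31 and 4.39 at 6 h, -2.94, limma adjusted p = 0.00197), Mgst3, a microsomal glutathione transferase (45.0 and 35.8, then 6.46 and 4.54, -2.68, 0.00140), and Ltc4s, the leukotriene C4 synthase (7.97 and 5.34, then 1.17 and 0.96, -1.87, 0.00804). The rest act on prostanoids: Ptgis, the prostacyclin synthase (5.64 and 4.07, then 1.29 and 1.53, -1.27, 0.0211), Cbr1, a carbonyl reductase (15.1 and 12.7, then 4.83 and 5.88, -1.23, 0.0323), and Fam213b, a prostaglandin F synthase (27.5 and 21.4, then 10.6 and 6.88, -1.40, 0.0206). Cyp4f18 and Mgst3 passed in every alternative run. Without wild-type 90 min replicate 1 or 2, Ptgis (limma adjusted p = 0.186 or 0.0521), Cbr1 (0.254 or 0.132) and Fam213b (0.174 or 0.0519) did not pass, and Cbr1 also missed without wild-type 6 h replicate 1 (0.0535).

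Cyp4f18, Mgst3 and Ltc4s also differed between genotypes at 6 h. Cyp4f18 (34.6 FPKM in GdX-deficient spleen, 2.61, limma adjusted p = 0.0179), Mgst3 (29.4, 2.24, 0.0171) and Ltc4s (7.32, 2.01, 0.0299) were higher there, and 0 genes were called lower, where 2.91% of all genes were higher and 3.96% passed in either direction. Differences were positive for 30 of the 34, with a median of 0.70 against 0.32 over all genes. Without the filter on low values, the limma adjusted p of Cyp4f18, Mgst3 and Ltc4s became 0.0718, 0.0534 and 0.0829, and none passed. After quantile normalization Ltc4s was at 1.39 and did not pass (limma adjusted p = 0.0926), and Mgst3 was only just under the threshold. The comparison rests on 1 GdX-deficient library, in which the summed markers of 11 of 12 cell types were above both wild-type libraries. Among them were monocytes (1162 against 450.4 and 578.8 FPKM, 5 of 6 markers above), red pulp macrophages (1223 against 870.2 and 723.1, 7 of 9) and red cell precursors (592.2 against 168.4 and 241.3, 6 of 6). Their part was not tested. At 90 min, over time in GdX-deficient spleen, with time as a covariate and for the difference between time courses 0 of 34 passed, with 2, 9, 4 and 9 genes at an unadjusted limma p under 0.05. Of all 11378 genes, 0.0176%, 0%, 0.0439% and 0.0703% passed in these comparisons, and 862, 910, 3071 and 1136 had an unadjusted limma p under 0.05.

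**Figure D5:**
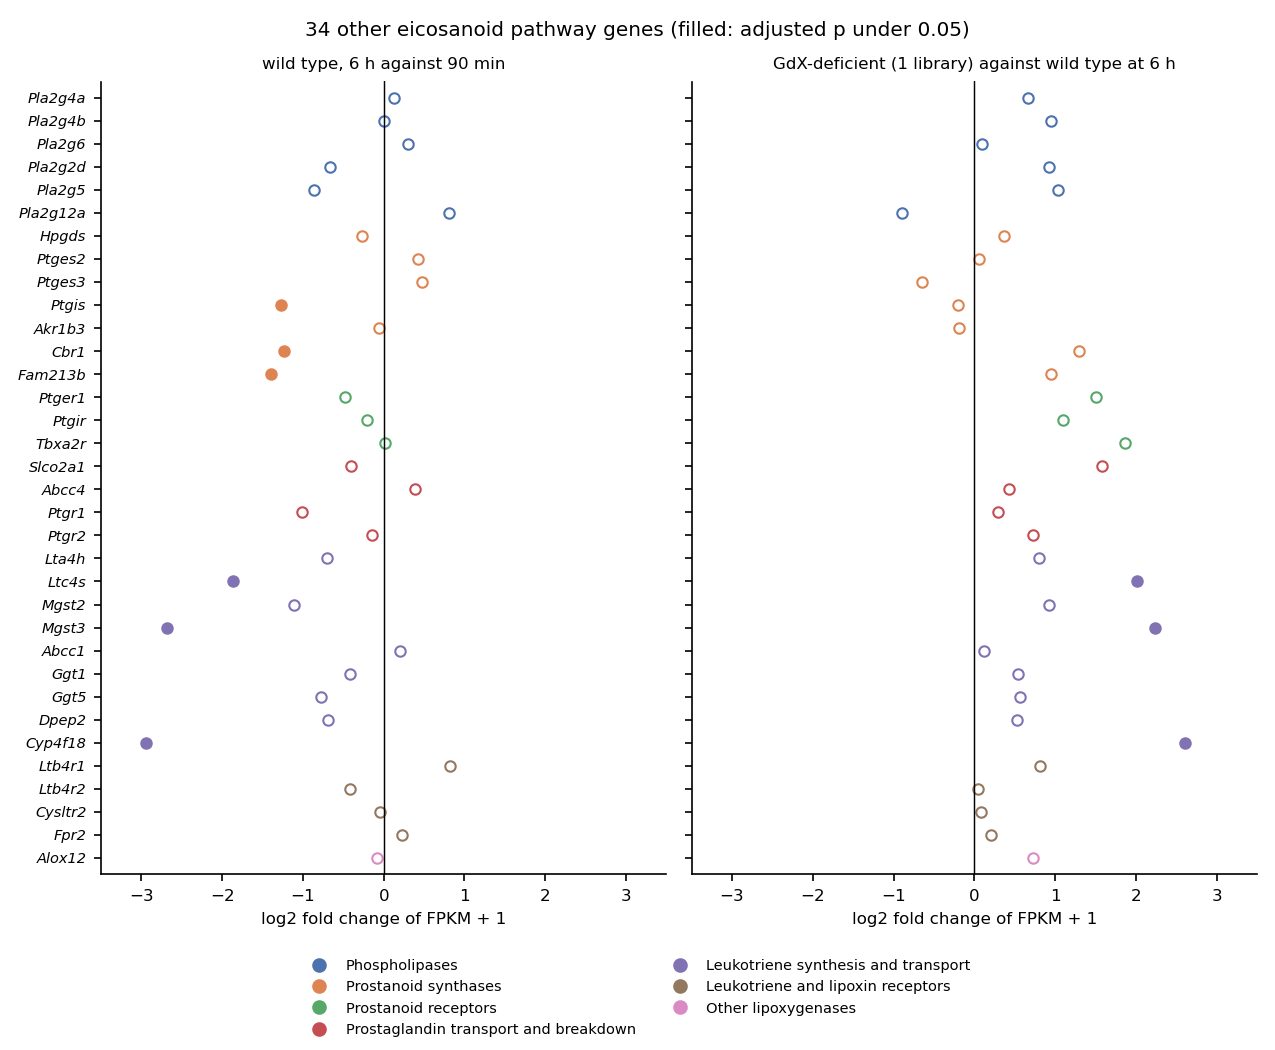
Differences on the log2(FPKM + 1) scale of the tested genes of the prostaglandin and leukotriene pathway outside the 10, by role, for wild-type spleen over time and for genotype at 6 h; filled points passed an adjusted p of 0.05. Cyp4f18, Mgst3 and Ltc4s are low over time in wild type (-2.94, -2.68 and -1.87) and high in the GdX-deficient 6 h library (2.61, 2.24 and 2.01).

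The remaining genes described did not pass or were not tested. Pla2g4a, the cytosolic phospholipase that releases arachidonic acid, read 3.05 to 4.88 FPKM in wild-type spleen and 6.74 in the GdX-deficient 6 h library (0.67, limma adjusted p = 0.264). Lta4h, which makes leukotriene B4, read 25.1 and 28.3 at 90 min and 13.8 and 18.7 at 6 h in wild type, and 28.7 in the GdX-deficient 6 h library. Hpgds, the hematopoietic synthase of prostaglandin D2, read 3.08 to 5.76 FPKM over the 7 libraries, whereas Ptgds, the other synthase of it, stayed at or below 0.26. Among receptors, Tbxa2r for thromboxane read 9.21 in the GdX-deficient 6 h library and 4.88 in GdX-deficient 90 min replicate 2, against 0.72 to 1.87 elsewhere. Ltb4r1 for leukotriene B4 read 6.15 in the GdX-deficient 6 h library against 3.03 and 3.13 in wild type, and Ptgir for prostacyclin 3.40 against 0.81 and 1.34. Ptgdr and Cysltr1 stayed at or below 0.22 FPKM.

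Some members had near-parallel profiles over the 7 libraries, by the root mean square difference of log2(FPKM + 1) after each gene's own mean was removed. Ptgs1 and Hpgd were the closest pair (0.155), followed by Hpgd and Tbxas1 (0.251). Alox5 and Alox5ap lay 0.429 apart, while the cyclooxygenases Ptgs1 and Ptgs2 lay 1.00 apart and Ptgs2 and Alox5 were the farthest (1.62). Among all other genes, those nearest to Ptgs2, which spanned 2.97 log2 units, were Plscr1 (0.225), Nfkbiz, an LPS-induced regulator of NF-kB (0.277), Gadd45g (0.303), Cd83 (0.310) and Apold1 (0.315). Nfkbiz, for example, read 220.2 and 255.7 FPKM in wild-type and 236.9 and 57.4 in GdX-deficient spleen at 90 min, and 45.9 and 76.5 against 27.7 at 6 h, low in the same libraries as Ptgs2. Nearest to Alox5ap were Map2k6 (0.146), Fam189b (0.151), Cbx6 (0.153), Tfeb (0.155) and Scn4a (0.163). Nearest to Hpgd were Pdlim7 (0.088), Tspan13 (0.102), Pqlc1 (0.110), Cmtm7 (0.119) and Ano6 (0.120), and Pdlim7 had 24.8 and 26.5 FPKM in wild type at 90 min and 9.67 and 9.35 at 6 h.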

How the data were processed

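The deposited table gives FPKM per gene and library for 17920 genes, computed by the authors. The submitters' processing notes name HISAT2 2.0.4, HISAT, Bowtie2, RSEM and the GRCm38.p5 build, without saying what each was used for. Per the labels' protocols, mRNA was selected with oligo-dT or ribosomal RNA was removed. Gene positions and promoters come from RefSeq for GRCm38.p6. Groups come from the labels.

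FPKM was used as deposited, and log2(FPKM + 1) was fitted with limma 3.58.1 (R 4.3.3, empirical Bayes with trend) over the 11378 genes with a mean of at least 1 FPKM, with the 4 groups or with genotype and time. The procedure was tested on simulated data. Depth was estimated from genes with 1 transcript, where 70.4% to 82.7% of low values lay within 0.2 of a whole fragment, too few to recover reads for a count test. FPKM are relative to the rest of the library, so abundant globin RNA lowers other genes.

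The members and lists were chosen with earlier results of these data known. Named are all members, other pathway genes past the threshold, 11 pathway genes whatever their values, and the 5 nearest profiles of Ptgs2, Alox5ap and Hpgd. Ubl4a and Gm44504 were added as a check of the labels. Alternatives were a pseudocount of 0.1, no filter or a mean of at least 5 FPKM, quantile normalization, rescaling without globin genes, a replicate block, the compared libraries alone and leaving out each library.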

Additional observations from a re-analysis of the deposited data

How the results depend on the processing

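For wild-type spleen at 6 h against 90 min, 3 members passed, against 5 in a fit of the 4 compared libraries alone (9.59% of all genes) and 1 to 5 when a library was left out (3.96% to 15.6% of all genes; 1 member without either wild-type 90 min replicate). For genotype at 6 h, 0 passed, against 1 to 2 when a library was left out (5.51% to 26.7% of all genes). With time as a covariate, 0 passed, against 0 to 4 when a library was left out (0.0176% to 14.7% of all genes). Over time in GdX-deficient spleen, for genotype at 90 min and for the difference between time courses, 0 members passed in every alternative run.

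The replicate numbers of the titles were tried as a block. Deviations from group means correlated at 0.768 between the wild-type groups, 0.080 between GdX-deficient 90 min and wild-type 6 h, and -0.120 between the 90 min groups, over 11378 genes. Same-numbered wild-type libraries thus deviated together, but the other pairs of groups did not, and the numbers were not taken as pairs. With the replicate block, the count for genotype at 6 h was 3, where 29.7% of all genes passed: Ptgs1 (1.15, limma adjusted p = 0.0217), Alox5ap (1.91, 0.0173) and Alox5. The call of Alox5 is void, here and in the highest genotype counts when a library was left out, since it passed the filter on low values only through GdX-deficient libraries. For wild-type spleen over time 4 passed with the block, with Ptgs2 added (-1.75, 0.0380), and 20.6% of all genes. In the other comparisons 0 passed.

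Signs turned for differences that had not passed. After quantile normalization Alox5 over time in wild type became 0.21, and at 6 h Ptger2, Ptger4 and Tbxas1 became -0.47, -0.22 and -0.12 between genotypes. Rescaled without globin genes, Ptger2 at 90 min became 0.08. Leaving out 1 library gave, between genotypes at 90 min, -0.18 to 0.05 for Ptger2, -0.99 to 0.01 for Ptger4, -0.09 to 1.58 for Alox5 and -0.47 to 0.72 for Alox5ap. It gave -0.26 to 0.53 for Ptger4 at 6 h and -0.31 to 0.13 for Alox5 over time in wild type. Without the filter on low values, Fam213b, Cbr1 and Ptgis over time in wild type (limma adjusted p = 0.0584, 0.0661 and 0.0630) and Cyp4f18, Mgst3 and Ltc4s at 6 h (0.0718, 0.0534 and 0.0829) did not pass. Ltc4s at 6 h had an adjusted p of 0.0926 after quantile normalization, where that of Mgst3 was only just under the threshold, and Cbr1 one of 0.0627 after rescaling. The cause was not tested. The GdX-deficient 6 h library cannot be left out of comparisons that need it. At a mean of at least 5 FPKM, 6 members were tested. Depth limits Alox5, with an estimated 11 fragments behind its lowest value.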
